A study of Mus musculus with 16 samples.

Results

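The heat shock proteins, their cochaperones and the chaperonins are the members described here, in lumbar spinal cord of SOD1G93A and wild-type mice before symptoms. Members were chosen by name alone, from the gene names that the array files give to probes that are not controls: the Hsp genes, the DnaJ genes of classes a, b and c, the Bag genes, the numbered Cct genes, and Cryab, Hsf1, Hsf2 and Stip1. This gave 151 probes in 169 spots for 79 gene names, of 41174 probes in 43379 spots for 27962 names on the array. Of these, 126 probes of 71 genes were bright enough to test at one age or the other, and 25 were not. No tested probe remained for Dnajb13, Dnajb7, Dnajb8, Dnajc5b, Dnajc5g, Hsf2, Hspa1l and Hspb6. The files use older names for 5 member probes. Hspa9a is now Hspa9 (2 probes), Hsp110 is Hsph1, Dnajb10 is Dnajb2, and Hspc171 is Tmem208, a membrane protein gene that entered by its old name and is no heat shock protein.

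The samples form 4 groups of 4 male mice of the mixed B6SJL background. SOD1G93A mice carry a human transgene for a mutant superoxide dismutase that causes familial amyotrophic lateral sclerosis in patients, and the controls are age-matched mice without it. Both genotypes were taken at 40 and at 80 days of age, with no other treatment. Each array held Cy3-labeled RNA of the whole lumbar cord of 1 mouse and a Cy5-labeled pool of neonatal heart, kidney and liver RNA, from mice with and without the transgene. Every value below is the log2 ratio of cord to pool or a difference of such ratios. A mouse analysed at 40 days is not the one analysed at 80 days, and the transgene in these mice is not limited to 1 cell type. In whole cord, fewer cells of a type and less RNA per cell cannot be told apart.

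Chaperones bind proteins that are unfolded or misfolded and help them to fold, to reach their compartment or to be degraded. Hsp70 proteins bind and release clients in a cycle driven by ATP. DnaJ proteins bring the clients and trigger ATP hydrolysis, and the Hsp110 and Bag proteins exchange the nucleotide. Stip1 hands clients from Hsp70 to Hsp90, small heat shock proteins hold unfolded clients without ATP, and the chaperonins enclose them in a ring, CCT in the cytosol and Hspd1 with its lid Hspe1 in mitochondria. The transcription factor Hsf1 switches on the heat-inducible members through heat shock elements, in which the letters GAA and their reverse complement TTC alternate. Mutant SOD1 aggregates with age in motor neurons and glia of these mice, and chaperones are among the proteins known to bind it.

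Promoter stretches of some members are shown first, since Hsf1 acts at promoters. They were picked by a match: every member with 3 units in a row, and the heat-inducible members with a pair. RefSeq windows of GRCm38.p6 were found for 63 of the member genes, and the 250 bases before each start were searched for GAANNTTC and TTCNNGAA. Each of these is its own reverse complement, so one search covers both strands, and the letters can overlap between matches. A pair was present upstream of 14 of 63 member genes (22.2%) and of 3932 of 27025 genes of the whole table (14.5%). The longer form with 3 units, GAANNTTCNNGAA or TTCNNGAANNTTC, was found upstream of Dnajb6, Hspd1 and Hspe1, which is 4.76% of the member genes, against 0.514% of all genes. A match describes these letters only. The stretches below run 5′ to 3′ on the strand of the gene, and capitals mark the matched units. Hspd1 (chr1:55088039-55088096, minus strand) and Hspe1 (plus strand) lie head to head and share the same stretch, so both readings of it are given. The others are Hsph1 (chr5:149636342-149636389, minus strand), Hspa1a (chr17:34972233-34972280, minus strand), Hspb1 (chr5:135887782-135887849, plus strand), Dnaja1 (chr4:40722324-40722371, plus strand) and Dnajb6 (chr5:29735832-29735884, plus strand). Hspa4, Hspa4l, Cct6a, Dnaja3, Dnajb2, Dnajb1, Bag3 and Stip1 have windows without a pair. No window was found for Cryab, Hspa8, Hsp90aa1, Hsp90ab1 and Hsf1, which are named only.
Hspe1: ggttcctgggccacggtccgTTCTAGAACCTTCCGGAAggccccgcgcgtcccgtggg
Hspd1: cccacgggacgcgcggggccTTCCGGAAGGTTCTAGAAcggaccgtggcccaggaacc
Hsph1: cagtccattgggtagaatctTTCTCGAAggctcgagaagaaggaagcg
Hspa1a: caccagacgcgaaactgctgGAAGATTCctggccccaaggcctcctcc
Hspb1: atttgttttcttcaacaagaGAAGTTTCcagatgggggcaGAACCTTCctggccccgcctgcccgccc
Dnaja1: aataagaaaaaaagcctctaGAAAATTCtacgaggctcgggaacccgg
Dnajb6: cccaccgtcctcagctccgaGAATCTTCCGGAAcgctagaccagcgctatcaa

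The arrays were alike in most respects. The share of probes with a Cy3 signal well above background was 46.1% to 55.3% (median 53.5%), and 0 member spots were saturated. A local background far above the signal was found at 4 spots of wild-type 40 days replicate 3, at 5 of SOD1G93A 40 days replicate 4 and at 63 of SOD1G93A 80 days replicate 4. Replicate 1 of every group lay on slide 1, and so on, and each group held a slide position of its own, so an effect of position cannot be told apart from one of the group. All the listed astrocyte, oligodendrocyte, neuron and endothelial genes were well above background on the 16 arrays, while the motor neuron genes Chat and Isl1 were not so on all of them. Over the 7 skeletal muscle marker probes the score, the median deviation from each probe's mean over all arrays, was above 0.5 on SOD1G93A 40 days replicate 2 (2.35), wild-type 80 days replicate 1 (0.74) and SOD1G93A 80 days replicates 2 (1.02) and 4 (0.96), with Tnnt3, Mylpf and Actn3 not well above background on all arrays. Over the 12 microglia probes it was above 0.5 on wild-type 80 days replicate 3 (0.60) and SOD1G93A 80 days replicate 4 (0.92). The mouse Sod1 probes differed little between genotypes, by -0.01 and 0.11 at 40 days and by -0.17 and -0.04 at 80 days, and neither was called. They are probes for the mouse sequence and do not check the human transgene.

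Against the neonatal pool, the members as a whole stood near the other probes, and the medians of the families ran from -1.27 to 0.73. The median log2 ratio over 16 arrays was 0.20 for the 126 member probes and 0.08 for all 21953 tested probes, with 67.5% and 55.4% above 0. Small heat shock proteins had the lowest median, over 9 probes with a range from -3.05 to 1.13. The Hsp70 and Hsp110 family had the highest, and 10 of its 24 probes were above 1. Medians were 0.67 for Hsp90, 0.04 for CCT, 0.15 for DnaJ proteins, 0.21 for the Bag proteins with Stip1, 0.22 for Hsf1 and -0.23 for the mitochondrial chaperonin. No test was made of these levels, since every array had the same dye for the cord and 1 pool was the reference.

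**Figure D1:**
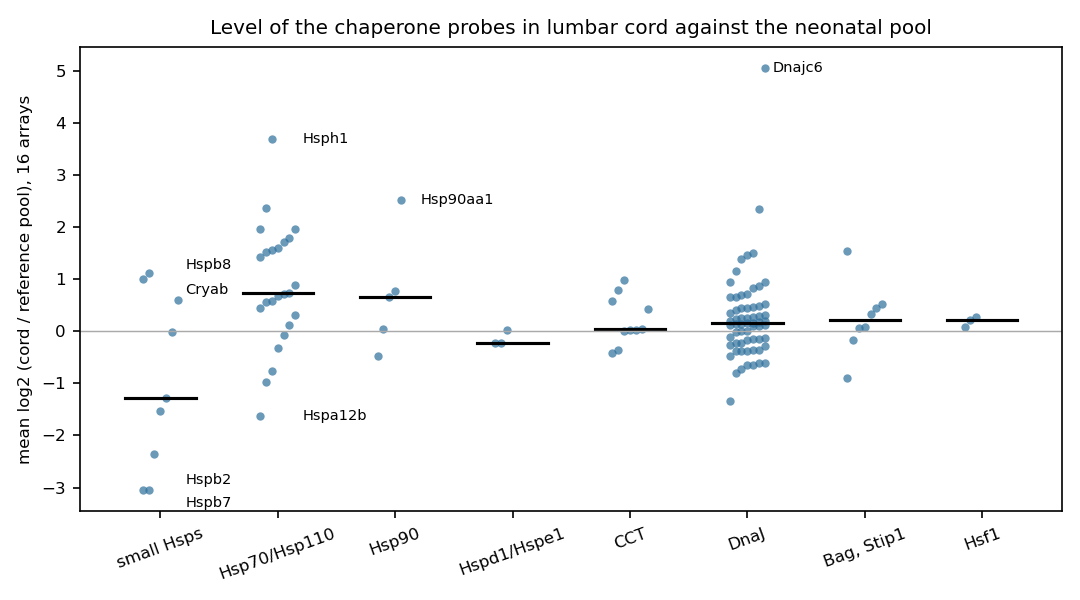
Mean log2 ratio of lumbar cord to the neonatal pool over 16 arrays (vertical axis) for each tested chaperone probe, by family, with a black line at the median of each family. Small heat shock proteins have the lowest median (-1.27) and the Hsp70 and Hsp110 family the highest (0.73), and Dnajc6 stands at 5.06.

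The highest ratio was that of Dnajc6, the auxilin that strips clathrin from synaptic vesicles in neurons, at 5.06 ± 0.162 (SD over 16 arrays). Next came Hsph1, an Hsp110 nucleotide exchange factor, at 3.70, then the inducible cytosolic Hsp90, Hsp90aa1, at 2.53, Hspa12a at 2.37 and Dnajb2, a neuronal DnaJ protein, at 2.36. At the other end stood 3 small heat shock proteins of heart and skeletal muscle, Hspb7 (-3.05), Hspb2 (-3.05) and Hspb3 (-2.35), with Hspa12b, an endothelial Hsp70, at -1.63 and a second Hspb7 probe at -1.53. The pool holds heart, so these ratios place the cord against that mixture and not on a scale of their own. Each ratio belongs to 1 probe, and probes of different genes were not set against each other as levels.

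The first comparison asked what the transgene did at 40 days, and few members moved. At an unadjusted limma p under 0.05, the threshold of the methods, 6 of 125 member probes (4.8%) of 5 genes were called, 4 higher and 2 lower in SOD1G93A, against 4.47% of all 21338 probes tested (2.44% higher and 2.03% lower). After Benjamini-Hochberg adjustment limma called 0 probes, member or other, and the smallest adjusted p of a member was 0.998. The same 6 probes were the ones whose 4 SOD1G93A arrays lay outside the range of the 4 wild-type arrays, which is 4.8% against 2.83% of all probes. The median change was 0.01 in the members and 0.00 over all probes. A share this near the background is not a result about chaperones as a group. The astrocyte markers were higher as well at this age, with 5 of 14 probes called and a median change of 0.19. Of the oligodendrocyte probes 4 of 13 were called higher, with a median of 0.16. Other marker sets had larger medians with 0 probes called: -0.66 over 7 meningeal fibroblast probes and 0.75 over 6 skeletal muscle probes. Of 9 immediate early gene probes 2 were called lower, with a median of -0.16. Their part in the values below was not tested.

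The 2 called members of the Hsp70 and Hsp110 family were both exchange factors of the Hsp110 kind. Hspa4l, an Hsp110 protein known from testis and brain, has its called probe A_52_P75568 on chromosome 3 from 40557485 to 40557544 of NCBI35 (mm7), the build of the files. Its log2 ratios at 40 days were 1.64, 1.35, 1.82 and 1.74 in wild-type replicates 1 to 4 and 1.99, 1.96, 2.15 and 1.89 in SOD1G93A replicates 1 to 4. All SOD1G93A arrays lay above all wild-type arrays. The difference was 0.36 ± 0.0992 (SE, n = 4 and 4, limma p = 0.00457, exact permutation p = 0.0286, the smallest that 4 arrays against 4 allow), and it was lost among 22 alternatives only where bright local backgrounds were kept (0.31, limma p = 0.277). The other Hspa4l probes gave 0.08, 0.04 and -0.04, so the call rests on 1 of 4 probes.

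Hsph1 showed the same order on its only probe, A_51_P110455 (chromosome 5, 148550005 to 148550064). Wild-type arrays of 40 days read 3.65, 3.64, 3.74 and 3.49, and SOD1G93A arrays read 3.82, 3.79, 3.86 and 3.78. The groups did not overlap, and the SOD1G93A arrays lay closer together. The difference was 0.18 ± 0.062 (SE, limma p = 0.0149, exact permutation p = 0.0286). It missed the threshold where bright local backgrounds were kept (0.17), in the authors' series matrix (0.29) and with median centring in place of loess (0.07).

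Among the DnaJ proteins, 2 probes were higher and 2 lower of 63, and their median change was 0.00. Dnajc5, the cysteine string protein of synaptic vesicles, was higher by 0.12 on both A_52_P113126 (limma p = 0.0345) and A_52_P113129 (p = 0.0486), each with an exact permutation p = 0.0286, while the third probe gave -0.03. The groups did not overlap on either. The first call ended without wild-type replicate 2 or 3 or any of the SOD1G93A arrays (0.10 to 0.13). The second ended without wild-type replicate 1, 2 or 3 or SOD1G93A replicate 1, 2 or 4 (0.09 to 0.13), and both ended with the slide as a block. In all, 14 and 15 of 22 alternatives ended these calls. Median centring (0.05 and 0.03) and the series matrix (0.05 and 0.12) were among them. Dnajc19, a partner of mitochondrial protein import, read 1.10, 0.93, 1.02 and 1.49 in wild-type and 0.85, 0.81, 0.89 and 0.82 in SOD1G93A mice on probe A_52_P438359. Every SOD1G93A array was below every wild-type array, wild-type replicate 4 was the highest, and the difference was -0.29 ± 0.106 (SE, limma p = 0.0209, exact permutation p = 0.0286). The change was -0.17 without that wild-type array and still called. It was not called where bright local backgrounds were kept (-0.28) or with processed signals (-0.24). The other Dnajc19 probes gave 0.12 (exact permutation p = 0.229) and -0.03 (p = 0.743). Dnajc17 differed by -0.12 on A_51_P197415 (limma p = 0.0429, exact permutation p = 0.0286), a call that ended without wild-type replicate 1 or 3 or SOD1G93A replicate 1, 3 or 4 (-0.12 to -0.10) and that turned to 0.06 with processed signals. Its other probe gave 0.02.

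**Figure D2:**
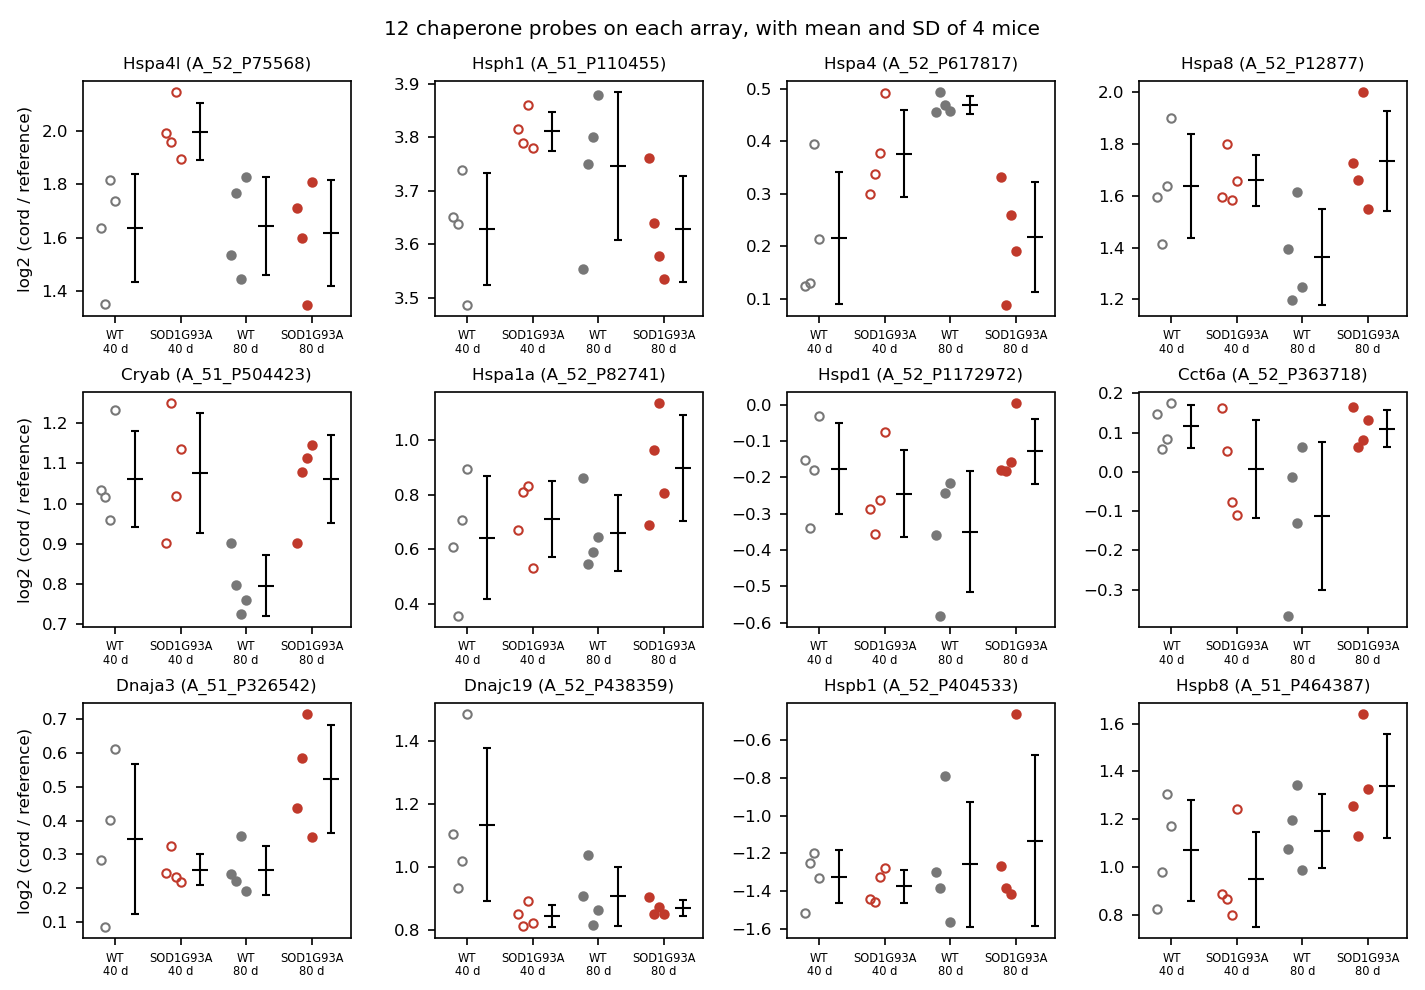
Log2 ratio of cord to pool (vertical axis, a scale of its own in each panel) on each array for 12 chaperone probes, with open circles at 40 days, filled circles at 80 days, grey for wild-type and red for SOD1G93A, and the mean with SD of 4 mice beside each group. The Hspa4l and Hsph1 groups are apart at 40 days, and the Hspa4 and Cryab groups are apart at 80 days.

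At 80 days, closer to the onset of symptoms, 11 of 126 member probes (8.73%) of 11 genes were called, 9 higher and 2 lower, against 6.86% of all 21603 probes (3.74% higher and 3.12% lower). Again 0 members passed Benjamini-Hochberg adjustment in limma, where the smallest adjusted p was 0.654 among members and 0.0729 among all probes. Groups that did not overlap were found for 8 probes (6.35%, 5 higher and 3 lower), against 4.31% of all probes. Median changes were 0.00 in the members and over all probes, and the median size of change was 0.0832 and 0.0674. The members called higher were spread over small heat shock proteins, Hsp70, both kinds of chaperonin and DnaJ proteins, in a set with a median change no larger than that of the array. The arrays of 80 days with high muscle markers were wild-type replicate 1 and SOD1G93A replicates 2 and 4. Without them limma no longer called Hspa4 (-0.18), Hspd1 (0.18), Cct6a (0.15), Dnajc3 (0.16), Dnajc8 (0.21) and Tmem208 (-0.18). Without the 2 arrays with high microglia markers it no longer called Hspa1a (0.25), Hspd1 (0.21), Cct6a (0.21), Dnajc3 (0.14) and Tmem208 (-0.16). Fewer arrays enter these fits, and the changes of Dnajc8 and Tmem208 without the first set, and of Hspa1a and Tmem208 without the second, were as large as with all arrays or larger. Oligodendrocyte markers were called higher on 3 of 13 probes, and 0 of 12 microglia probes were called. The score of the 12 microglia probes ranged from -0.15 to 0.60 in wild-type and from -0.16 to 0.92 in SOD1G93A mice, and Cd68 alone of the 8 genes was not well above background on all arrays.

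**Figure D3:**
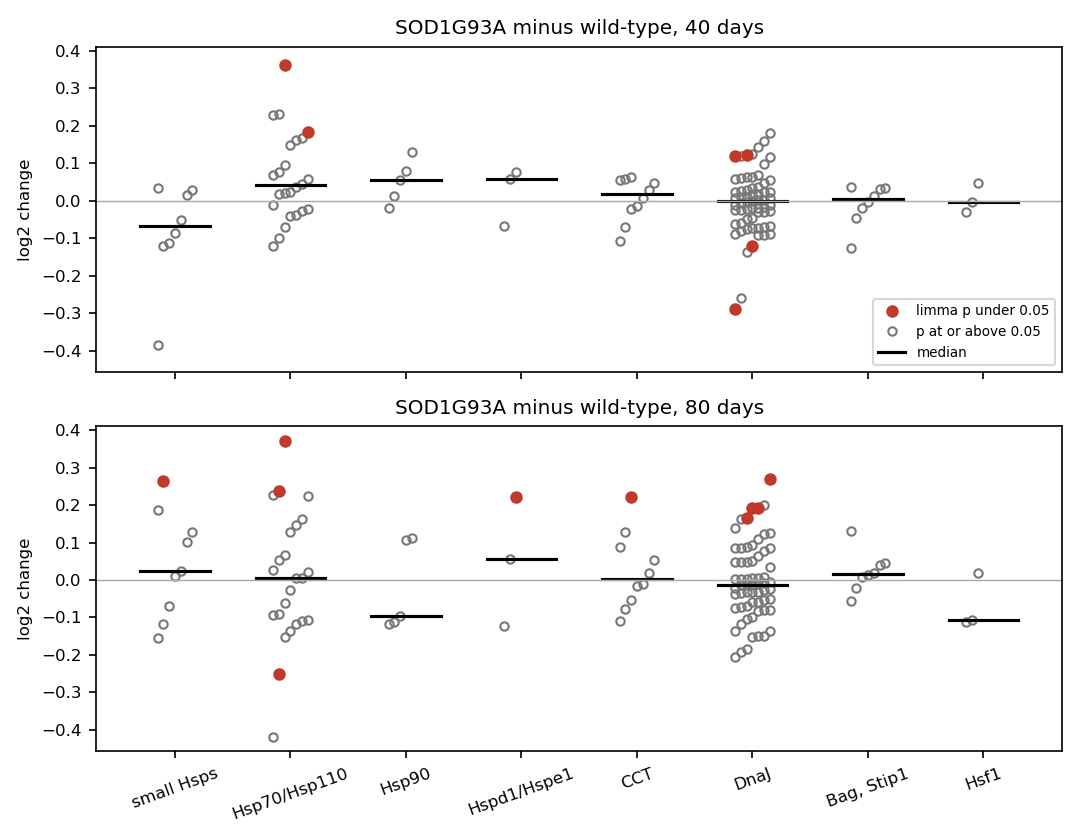
Log2 change, SOD1G93A minus wild-type (vertical axis), of each tested chaperone probe at 40 days (top) and 80 days (bottom) by family, with red points at a limma p under 0.05, grey circles for the rest and a black line at the median of each family. The medians lie near 0, 6 probes are red at 40 days and 10 of the 11 called probes at 80 days, since Tmem208 belongs to no family.

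Cryab, the small heat shock protein alpha B-crystallin, which is abundant in oligodendrocytes, was the called member of its family. Probe A_51_P504423 (chromosome 9, 50731758 to 50731817) read 0.90, 0.80, 0.72 and 0.76 in wild-type mice of 80 days and 0.90, 1.08, 1.11 and 1.15 in SOD1G93A mice. The groups touched at 0.90 to 2 decimals but did not overlap. The difference was 0.26 ± 0.0717 (SE, limma p = 0.00408, exact permutation p = 0.0286) and was called in all 23 alternatives. The second Cryab probe, A_52_P106482, which is brighter, differed by 0.03 (exact permutation p = 0.857), and its groups overlapped. Which transcripts each probe binds was not analysed here.

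Hspb1 and Hspb8, the other small heat shock proteins that motor neurons and glia are known to use, were not called. Hspb1 (A_52_P404533) read -1.30, -1.38, -0.79 and -1.57 in wild-type and -1.27, -1.38, -1.42 and -0.46 in SOD1G93A mice at 80 days (difference 0.13 ± 0.221 SE, exact permutation p = 0.6). Its highest array in each genotype, wild-type replicate 3 and SOD1G93A replicate 4, was the one with the highest microglia score. The part of the microglia in this was not tested. Hspb8 (A_51_P464387) differed by -0.12 at 40 days (exact permutation p = 0.371) and 0.19 at 80 days (p = 0.229). Over the whole family the median change was -0.07 at 40 days and 0.03 at 80 days.

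In the Hsp70 and Hsp110 family, 2 probes were called higher and 1 lower of 24 at 80 days, with a median of 0.01. Hspa8, the constitutive cytosolic Hsp70, read 1.40, 1.20, 1.61 and 1.25 in wild-type and 1.73, 1.66, 2.00 and 1.55 in SOD1G93A mice on probe A_52_P12877. Wild-type replicate 3 reached into the SOD1G93A range, but on each of the 4 slides the SOD1G93A array was the higher. The difference was 0.37 ± 0.115 (SE, limma p = 0.00884, exact permutation p = 0.0571) and was called in all 23 alternatives. The brighter Hspa8 probe, A_51_P170371, differed by 0.02 (exact permutation p = 0.771). The files place both probes on chromosome 5 (5788853 to 5788912 for the first, mm7), so the reading may hold near-identical copies of Hspa8.

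Hspa1a, the stress-inducible Hsp70, had changes of like size on its 3 tested probes, 1 of them called. Probe A_52_P82741 read 0.86, 0.55, 0.59 and 0.64 in wild-type and 0.69, 0.96, 1.14 and 0.81 in SOD1G93A mice at 80 days. Wild-type replicate 1 lay above the lowest 2 SOD1G93A arrays, so the groups overlapped. The difference was 0.24 ± 0.105 (SE, limma p = 0.0456, exact permutation p = 0.114), and it missed the threshold in 12 of 23 alternatives, the slide as a block among them. Leaving out wild-type replicate 2, 3 or 4 or SOD1G93A replicate 2 or 3 ended it, with the smallest change, 0.16, without SOD1G93A replicate 3. The other probes gave 0.23 (exact permutation p = 0.314) and 0.22 (p = 0.229) at 80 days, and the 3 gave 0.17, 0.15 and 0.07 at 40 days, none of them called. These probes may also read Hspa1b, a near-identical copy, which has no probe of its own among the members.

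Hspa4, a cytosolic Hsp110 protein, went the other way. Probe A_52_P617817 (chromosome 11, 53237398 to 53237457) read 0.46, 0.49, 0.47 and 0.46 in wild-type and 0.33, 0.09, 0.26 and 0.19 in SOD1G93A mice of 80 days. All SOD1G93A arrays were below all wild-type arrays, and the wild-type arrays lay very close together (SD 0.0174). The difference was -0.25 ± 0.0646 (SE, limma p = 0.00294, exact permutation p = 0.0286). Of 23 alternatives, 2 ended the call: median centring of each array (-0.17) and leaving out the arrays of 80 days with high muscle markers (-0.18). Hspa4 probe A_51_P200477 had a wide spread and gave -0.42 ± 0.296 (SE, exact permutation p = 0.343), and A_51_P460676 gave 0.03 ± 0.0644 (SE, p = 0.629).

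The chaperonins had 1 called probe in each of their kinds. Hspd1, the mitochondrial Hsp60, read -0.36, -0.58, -0.24 and -0.22 in wild-type and -0.18, -0.18, -0.16 and 0.00 in SOD1G93A mice of 80 days on probe A_52_P1172972. The SOD1G93A arrays were all the higher, by 0.22 ± 0.0883 (SE, limma p = 0.0307, exact permutation p = 0.0286), and the call ended without wild-type replicate 1 (0.22), wild-type replicate 2 (0.14) or SOD1G93A replicate 4 (0.18). The brighter Hspd1 probe gave 0.06 (exact permutation p = 0.457). Hspe1, its lid, whose gene shares the promoter stretch printed above, read -0.15, -0.19, -0.14 and -0.16 in wild-type and -0.34, -0.35, -0.23 and -0.21 in SOD1G93A mice. Here the SOD1G93A arrays were all the lower (-0.12 ± 0.0582 SE, exact permutation p = 0.0286), though limma did not call it (p = 0.0607).

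Cct6a was the called probe among 10 of the cytosolic chaperonin CCT, which folds actin and tubulin. It read -0.37, -0.01, -0.13 and 0.06 in wild-type and 0.17, 0.06, 0.08 and 0.13 in SOD1G93A mice (difference 0.22 ± 0.09 SE, limma p = 0.0327, exact permutation p = 0.0571). Wild-type replicate 1 stood lowest, and that mouse also had a high muscle marker score. Without it the difference was 0.14 and not called, and the call also ended without wild-type replicate 3 (0.22) or SOD1G93A replicate 1 (0.20) or 4 (0.22). The other 9 CCT probes were not called, and the family had medians of 0.02 at 40 days and 0.00 at 80 days.

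Of 63 DnaJ probes, 4 were called higher and 0 lower in limma at 80 days, and 28 had a change above 0. Dnaja3, the mitochondrial DnaJ protein Tid1, read 0.24, 0.22, 0.35 and 0.19 in wild-type and 0.44, 0.59, 0.72 and 0.35 in SOD1G93A mice on probe A_51_P326542. The ranges met at 0.35, and the SOD1G93A array was the higher on each slide. The difference was 0.27 ± 0.0843 (SE, limma p = 0.00921, exact permutation p = 0.0571), called in all 23 alternatives, while the other probe of the gene gave 0.09 (p = 0.114).

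Dnajb2, which neurons use to keep ubiquitinated proteins soluble, read 2.37, 2.14, 2.33 and 2.27 in wild-type and 2.43, 2.50, 2.50 and 2.42 in SOD1G93A mice of 80 days. The groups did not overlap, with a difference of 0.19 ± 0.0654 (SE, limma p = 0.0152, exact permutation p = 0.0286) that missed the threshold only with processed signals (0.19) among 23 alternatives. Dnajc8, a splicing-associated DnaJ protein, was higher by 0.17 (limma p = 0.0275, exact permutation p = 0.0286) on A_51_P338776, and its other probe gave 0.14 (exact permutation p = 0.0571). The call ended without wild-type replicate 2 (0.14) or SOD1G93A replicate 2 (0.16) or 3 (0.13). Dnajc3, the inhibitor of eIF2alpha kinases in the endoplasmic reticulum, was mixed. Probe A_52_P264902 was higher by 0.19 (limma p = 0.0373, exact permutation p = 0.0571), a call that ended without wild-type replicate 1, 2 or 3 or SOD1G93A replicate 3 or 4 (0.13 to 0.20). Its other probes gave -0.15, -0.19 and -0.07, none of them called. The remaining call was Tmem208, which is no chaperone (-0.15, limma p = 0.0312, exact permutation p = 0.0286), and it ended without wild-type replicate 1 or 3 or SOD1G93A replicate 2 or 3 (-0.15 to -0.11).

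**Figure D4:**
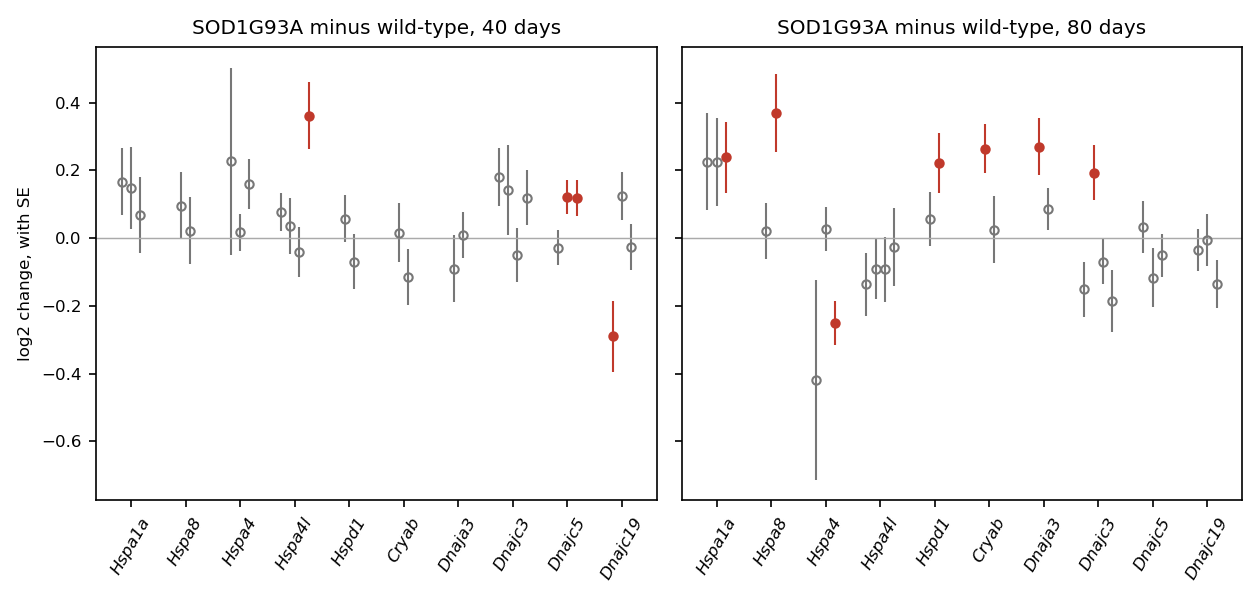
Log2 change, SOD1G93A minus wild-type, with SE of the difference (vertical axis) for every tested probe of 10 chaperone genes at 40 days (left) and 80 days (right), with filled red points at a limma p under 0.05. At 80 days the called probes of Hspa8, Cryab and Hspd1 (0.37, 0.26 and 0.22) stand beside a second probe near 0 (0.02, 0.03 and 0.06), while the 3 Hspa1a probes lie together (0.22 to 0.24).

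The best known heat-inducible genes were examined whether called or not, from a list chosen with earlier results of these data known. Over 27 probes of 14 such genes, 2 were called higher and 0 lower at 40 days (median change 0.02), and 4 higher and 0 lower at 80 days (median 0.05). Of all probes 2.44% were called higher at 40 days and 3.74% at 80 days. Those called were Hspa4l and Hsph1 at 40 days and Hspa1a, Hspa8, Cryab and Hspd1 at 80 days. Of those called at 80 days, Hspa8, Cryab and Hspd1 were not called on their brightest probes. The other genes were not called on any tested probe, and 2 of them, Hspb1 and Hspe1, were described above. The values that follow are those of the brightest probes. Hsp90aa1 gave 0.01 at 40 days and -0.10 at 80 days, Hsp90ab1 0.08 and 0.11, Dnajb1, the DnaJ partner of inducible Hsp70, -0.06 and 0.09, and Dnaja1 -0.02 and 0.05. Bag3, which works with Hspb8 in selective autophagy, gave -0.05 and 0.13, and Stip1 gave 0.01 and 0.04. The regulator Hsf1, which is not on that list, gave 0.00 and 0.02 on its brightest probe, and over its 3 probes the median was -0.11 at 80 days, with none called. The SEs on the brightest probes were 0.0551 to 0.0961, and a p above the threshold does not show that they did not change.

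The genotype change of 16 of 126 member probes (12.7%) of 14 genes differed between the ages at an unadjusted p under 0.05 for limma's interaction term, 7 upward and 9 downward at 80 days relative to 40 days. Over all 21953 probes the share was 6.68% (3.11% upward and 3.57% downward). The adjusted p of every member was at least 0.543, and limma called 0 probes of any kind after adjustment. The 16 are those of Hspa4, Hspa4l, Hsph1, Hspa8, Cryab, Hspd1, Hspe1, Cct6a, Dnaja3, Dnaja4, Dnajc2, Dnajc8, and 2 each of Dnajc3 and Dnajc5. The number of called members was 7 where Cy3 was used without the pool, with 4.45% of all probes called, and 8 in the authors' series matrix, with 4.66%.

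Hspa4 had the smallest p. On A_52_P617817 its 40-day values were 0.12, 0.13, 0.39 and 0.21 in wild-type and 0.30, 0.34, 0.38 and 0.49 in SOD1G93A mice, with 1 wild-type array inside the SOD1G93A range (0.16, exact permutation p = 0.114). Set against -0.25 at 80 days, the change differed between the ages by -0.41 ± 0.0962 (SE, limma p = 0.000559, exact permutation p = 0.00163 over 4900 relabellings within ages). The other Hsp110 genes turned the same way, Hsph1 by -0.30 (p = 0.0103, exact permutation p = 0.0118) and Hspa4l by -0.39 (p = 0.0286, exact permutation p = 0.0665). At 80 days Hsph1 read 3.55, 3.75, 3.80 and 3.88 in wild-type and 3.76, 3.64, 3.58 and 3.54 in SOD1G93A mice, with overlap (-0.12, exact permutation p = 0.229). Hspa4l read 1.53, 1.77, 1.45 and 1.83 against 1.71, 1.60, 1.35 and 1.81, also with overlap (-0.03, exact permutation p = 0.857). The interaction of Hspa4l was not called without wild-type replicate 2 or SOD1G93A replicate 3 of 40 days, or without wild-type replicate 2 or 4 or SOD1G93A replicate 3 of 80 days (-0.35 to -0.29). These are single probes set side by side after their values were seen, and other probes of Hspa4 and Hspa4l were not called in the interaction. The astrocyte markers turned the same way, with a median interaction of -0.20 and 5 of 14 probes called lower and 0 higher, and their part in these values was not tested.

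The opposite turn, from near or below 0 at 40 days to above 0 at 80 days, was seen for Dnaja3 (0.36, exact permutation p = 0.0298), Hspa8 (0.35, p = 0.106), Cct6a (0.33, p = 0.00939), Hspd1 (0.29, p = 0.0412), Cryab (0.25, p = 0.0947), Dnajc8 (0.23, p = 0.0106) and Dnaja4 (0.21, p = 0.0278). Hspe1 went against Hspd1, with a difference of -0.20 (exact permutation p = 0.0257). The interactions of Hspa8, Cryab and Hspe1 were lost in 16, 17 and 18 of 30 alternatives and those of Cct6a and Hspa4 in 1 each. Those of Dnajc5 were lost in 13 (A_52_P113126) and 16 (A_52_P113129), and those of Dnajc3 in 1 (A_51_P204237) and 6 (A_52_P329881). Dnaja4 lost its interaction in 13, Hspd1 in 9, Hspa4l in 8, Dnaja3 and Dnajc8 in 3 each, and Dnajc2 and Hsph1 in 2 each. Single arrays left out ended the call for Hspa8 and Hspe1 in 11 of 16 cases, for Cryab in 10, for Dnaja4 in 8 (0.16 to 0.21) and for Hspd1 in 5, which were wild-type replicate 4 and SOD1G93A replicates 1 and 2 of 40 days and wild-type replicate 2 and SOD1G93A replicate 4 of 80 days (0.21 to 0.28).

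With age, the members were called about as often as other probes in wild-type mice and more often on the lower side in SOD1G93A mice. From 40 to 80 days, 17 of 126 probes (13.5%) were called in wild-type mice, 5 higher (3.97%) and 12 lower (9.52%), against 15.1% of all probes (6.78% higher and 8.29% lower). In SOD1G93A mice 26 (20.6%) were called, 9 higher (7.14%) and 17 lower (13.5%), against 16.9% (8.64% higher and 8.28% lower). These shares were not tested against each other. In limma 0 members passed adjustment, with smallest adjusted p of 0.0692 and 0.0926, while 347 and 246 probes of the whole array did. That 0 was not the same in every setting: 7 members passed adjustment in SOD1G93A mice with array weights, and 1 passed in wild-type mice where bright local backgrounds were kept, with processed signals, and without the 3 arrays with bright local backgrounds. Without the 4 arrays with high muscle markers, the SOD1G93A count was 15 and the wild-type count 13, with 12.6% and 11% of all probes called. Of the members, 3 were called in both genotypes, 14 by p in wild-type and 23 in SOD1G93A alone, and that difference in calls was tested only by the interaction above.

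**Figure D5:**
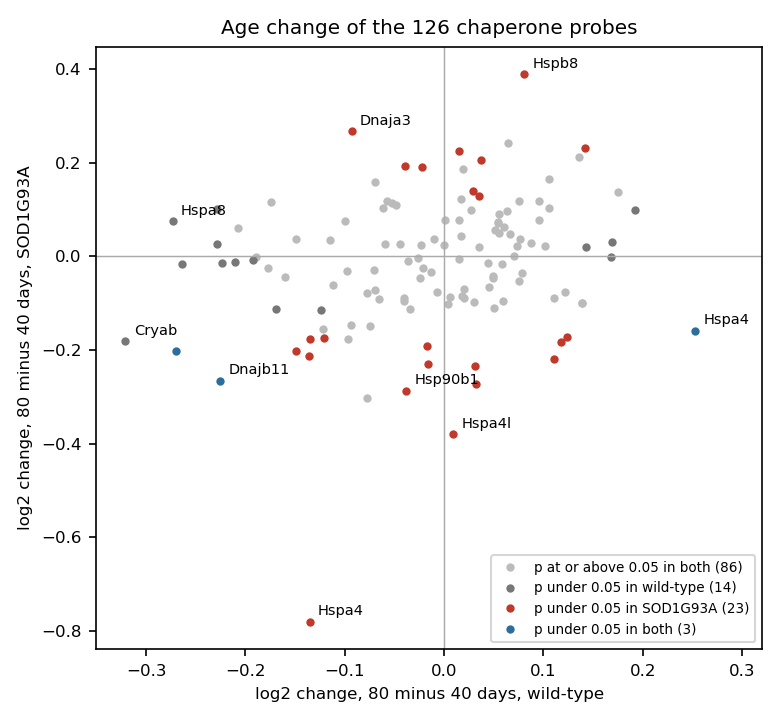
Log2 change from 40 to 80 days in wild-type (horizontal axis) and SOD1G93A mice (vertical axis) for the 126 tested chaperone probes, coloured by the genotype in which limma's p was under 0.05. Most points are grey and near the centre, 3 probes are called in both genotypes, and of these Hspa4 lies at 0.25 in wild-type and -0.16 in SOD1G93A mice.

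Lower at 80 days in both genotypes were Dnajb11 and Dnaja1. Dnajb11, the DnaJ partner of Hspa5 in the endoplasmic reticulum, read -0.19, -0.16, 0.09 and -0.20 at 40 days and -0.38, -0.30, -0.43 and -0.25 at 80 days in wild-type mice. In SOD1G93A mice it read -0.25, -0.14, -0.19 and -0.13, then -0.39, -0.39, -0.62 and -0.37. The ages did not overlap in either genotype, with changes of -0.23 ± 0.074 (SE, limma p = 0.00756) and -0.27 ± 0.074 (SE, p = 0.00242), each with an exact permutation p = 0.0286, called in all 29 alternatives. Dnaja1, a cytosolic DnaJ protein, changed by -0.27 (limma p = 0.00156) and -0.20 (p = 0.0118) on its brightest probe, each with an exact permutation p = 0.0286.

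Hspa4 was called in both genotypes in opposite directions, 0.25 ± 0.068 in wild-type (SE, exact permutation p = 0.0286) and -0.16 ± 0.068 in SOD1G93A mice (SE, exact permutation p = 0.0571). In wild-type mice alone by p, both Cryab probes were lower at 80 days (-0.26, exact permutation p = 0.0286, and -0.32, p = 0.0571). So were Hspa8 (-0.27, exact permutation p = 0.114), Hspa2 (-0.21, p = 0.0286), Cct6a (-0.23, p = 0.0571), Dnajc19 (-0.23, p = 0.0857) and Dnajb4 (-0.22, p = 0.0286). Cct6a and Dnajb4 lost the call without wild-type 80 days replicate 1 (-0.14 for each), Dnajc19 without wild-type 40 days replicate 4 (-0.11) or 80 days replicate 3 (-0.20), and Hspa8 without wild-type 40 days replicate 4 or 80 days replicate 2 or 4 (-0.23 to -0.19). Of the 13 oligodendrocyte probes, 4 were lower with age and 0 higher in wild-type mice (median change -0.11), and 6 were lower and 1 higher in SOD1G93A mice (median -0.22), and their part in the Cryab values was not tested.

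In SOD1G93A mice the member with the largest rise was Hspb8, a small heat shock protein of the Bag3 complex. It read 0.89, 0.87, 0.80 and 1.24 at 40 days and 1.25, 1.13, 1.64 and 1.33 at 80 days. Replicate 4 of 40 days overlapped the older group, and the array of 80 days was the higher on each slide. The change was 0.39 ± 0.126 (SE, limma p = 0.007, exact permutation p = 0.0571), called in all 29 alternatives, against 0.08 in wild-type mice. The difference between genotypes was 0.31 (limma p = 0.102, exact permutation p = 0.127), which did not pass. Dnaja3 (0.27) and Dnajc11 (0.23) were also higher, each with an exact permutation p = 0.0286. Dnajc11 lost its call without SOD1G93A 40 days replicate 1 (0.22) or 80 days replicate 3 (0.14), and Dnaja3 without SOD1G93A 80 days replicate 3 (0.20).

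Among the probes called lower with age in SOD1G93A mice, some were of Hsp110 genes and some of genes of the endoplasmic reticulum, picked out after their values were seen and not tested as groups. The probes of Hspa4l fell by 0.38 and 0.23 on 2 of 4 probes and Hsph1 by 0.18, each with an exact permutation p = 0.0286. Hspa4 changed by -0.78 (exact permutation p = 0.0857) on the probe with the wide spread, A_51_P200477, whose call ended without SOD1G93A 40 days replicate 1 or 2 or 80 days replicate 3 (-0.73 to -0.60). In the endoplasmic reticulum, Hsp90b1 changed by -0.29 (exact permutation p = 0.0286) on one probe, the other gave -0.04 (p = 0.686), and the first lost its call without SOD1G93A 80 days replicate 2 (-0.23). Dnajc3 changed by -0.27 and -0.22 on 2 of 4 probes, Hspa5, the Hsp70 of that compartment, by -0.20, and Dnajb9 by -0.19 on 1 of 3, all with an exact permutation p = 0.0286. In wild-type mice the same probes of the endoplasmic reticulum genes were not called. They gave -0.04 and 0.05 for Hsp90b1, 0.03 and 0.11 for Dnajc3, -0.15 for Hspa5 and -0.02 for Dnajb9. Of these genes only Dnajc3 was called in the interaction. Other genes of that compartment fell with age in wild-type mice too. Dnajb11, described above, was called lower in both genotypes, and Hyou1, described below, was lower in both. In SOD1G93A mice Dnajc6 fell by 0.24 (exact permutation p = 0.0571), a call that ended without SOD1G93A replicate 1, 2 or 3 of 40 days or 3 or 4 of 80 days (-0.23 to -0.19).

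A list of 43 other genes that work with these chaperones but are no members held 71 tested probes at 40 days and 72 at 80 days. At 40 days 1 probe was called higher and 3 lower (median change 0.00), and at 80 days 2 were called higher and 5 lower (median -0.02). Of all probes 2.44% were called higher and 2.03% lower at 40 days, and 3.74% and 3.12% at 80 days. Named next are the genes called at 80 days, at an unadjusted limma p under 0.05. None of them passed adjustment. Cdc37, which brings kinases to Hsp90, was higher on both probes at 80 days (0.33 and 0.26). The Hsp90 cochaperones Chordc1 (-0.21), Ppid (-0.20), Ptges3 (-0.20) and Cdc37l1 (-0.40) were each lower on 1 probe, as was the prefoldin subunit Pfdn1 (-0.21). Hyou1, the Hsp110 relative of the endoplasmic reticulum, was lower with age in both genotypes (-0.37 and -0.43). The cold-inducible gene Rbm3, taken as a contrast to the heat-inducible ones, was higher in SOD1G93A mice at 80 days (0.27) and rose with age in both genotypes (0.18 and 0.41). The other gene of that list, Cirbp, gave 0.10 at 80 days, not called, and rose with age by 0.26 in both genotypes.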

How the data were processed

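Lumbar spinal cord of 16 mice, 4 for each genotype and age, was hybridised to 2-colour whole mouse genome arrays. The authors extracted the spots with Agilent Feature Extraction 9.5.3.1, per the labels, and the deposited signal of each spot is a raw linear intensity. A deposited series matrix gives log2 values, made by the authors with limma. They follow the Cy3 channel of the same arrays (r from 0.881 to 0.914 with log2 Cy3 and 0.322 to 0.336 with the log2 ratio), their column medians are 6.40 on every array of 40 days and 6.09 or 6.10 on those of 80 days, and their centring is not given in the sources used here.

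With limma 3.58.1 under R 4.3.3, the median signals of each spot gave the log2 ratio of cord to pool. Local backgrounds over 20 units above their spot's signal were set to the array's median background. The normexp correction (offset 50) came next, then loess on each array and Aquantile between arrays. No control or outlier spot was used, and replicate spots of a probe entered as their mean. A probe near background has a ratio drawn toward 0, so its change appears smaller than it is. A probe had to be well above background in Cy3 on 3 or more of the 4 arrays of some group, with values on 2 or more arrays of every group. These were tested with lmFit and eBayes, within each age on 8 arrays and for interaction and age on 16, and all p-values are two-sided and unadjusted unless called adjusted. Scripts were tested on simulated data. The labels call the samples biological replicates.

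Replicate numbers follow the slides. Deviations of same-numbered arrays correlated from -0.07 to 0.13 between the genotypes at 40 days, from 0.00 to 0.20 at 80 days, from -0.04 to 0.02 between the ages in wild-type and from 0.09 to 0.23 in SOD1G93A mice, where 3 of 4 were above 0.1. Arrays of different number correlated from -0.11 to 0.08, -0.30 to 0.23, -0.08 to 0.10 and -0.18 to 0.07 in the same order. Between the ages in SOD1G93A mice, every same-numbered value was thus above every other one. Since not every pair was above 0.1 in any comparison, the number was not taken to pair the mice in the main fits. The slide entered as a block in 1 of the alternatives. The number of arrays limits precision. Named probes were those called in a genotype comparison or the interaction, a list of best known heat shock genes, the 10 largest called age changes in each genotype, and the 5 highest and 5 lowest ratios. The members and lists were chosen with earlier results of these data known. Alternatives changed the background, signal, normalization, reference channel, filter, outlier spots, weights, block and arrays. Sequences came from RefSeq. Python 3.11.15 and matplotlib 3.10.9 made the figures.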

Additional observations from a re-analysis of the deposited data

Results flagged for a closer look

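Among the probes named above, 1 of the 4 arrays of a group stood far from the others in 14 cases, and the same held for 2 marker scores. In each, the gap to the nearest array took up more of the range of the group than Dixon's test allows 4 values. Chance gives this in about 1 of 20 groups, so 10 of the 200 groups examined would be expected and 16 were found. For the small heat shock proteins it was Hspb1 on SOD1G93A 80 days replicate 4 (0.845 of the range), Hspb2 on wild-type 80 days replicate 1 (0.845) and a probe of Hspb7 on wild-type 40 days replicate 2 (0.9). For the chaperonin genes it was Hspd1 on SOD1G93A 80 days replicate 4 (0.861) and Hspe1 on SOD1G93A 40 days replicate 2 (0.859), and for Bag3 wild-type 80 days replicate 2 (0.876). DnaJ probes made up the rest: Dnaja1 on wild-type 40 days replicate 3 (0.837), Dnajb1 on wild-type 40 days replicate 2 (0.894), Dnajb11 on wild-type 40 days replicate 3 (0.875) and SOD1G93A 80 days replicate 3 (0.895), Dnajc11 on SOD1G93A 40 days replicate 1 (0.963), Dnajc2 on wild-type 80 days replicate 2 (0.918), and Dnajc8 on SOD1G93A 40 days replicate 2 (0.956) and wild-type 80 days replicate 2 (0.832). The skeletal muscle score stood apart on wild-type 80 days replicate 1 (0.873) and the microglia score on wild-type 80 days replicate 3 (0.862).

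The genotype change differed between 40 and 80 days, by limma's interaction term at an unadjusted p under 0.05, for 16 probes. The change at 80 days minus that at 40 days was -0.41 for Hspa4, -0.39 for Hspa4l, -0.30 for Hsph1, -0.33 and -0.30 for probes of Dnajc3, -0.30 for Dnajc2, -0.24 and -0.17 for probes of Dnajc5, and -0.20 for Hspe1. It was 0.36 for Dnaja3, 0.35 for Hspa8, 0.33 for Cct6a, 0.29 for Hspd1, 0.25 for Cryab, 0.23 for Dnajc8 and 0.21 for Dnaja4. Each of these calls ended in some of the alternatives, as given above. No cause of these differences was tested.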

How the results depend on the processing

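The number of members called moved with the processing, and so did the share of all probes called, given in brackets. Where bright local backgrounds were kept, the member count was 0 in place of 6 at 40 days (1.15%). It was 9 in place of 16 for the interaction (3.63%) and 17 in place of 26 for age in SOD1G93A mice (11.4%). With processed signals it was 15 at 40 days (15.6%). With median centring it was 3 at 40 days (3.76%) and 14 for age in SOD1G93A mice (11.3%). In the Cy3 channel alone it was 6 in place of 11 at 80 days (5.16%), 7 for the interaction (4.45%) and 17 for age in SOD1G93A mice (12.1%). In the series matrix it was 7 at 80 days (5.26%) and 8 for the interaction (4.66%). Array weights gave 13 at 40 days (6.35%) and 23 at 80 days (11%). Without the 3 arrays with bright local backgrounds, chosen after seeing the data as were the other sets of arrays left out, it was 12 at 40 days (5.5%). Without the 4 arrays with high muscle markers it was 15 for age in SOD1G93A mice (12.6%). A comparison within an age lost only the arrays of that age. At 80 days the set with bright backgrounds was SOD1G93A replicate 4 alone. At 40 days the set with high muscle markers was SOD1G93A replicate 2 alone. Each of these repeats an alternative that left out 1 array. The replicate block, with the slide as the block, gave 4, 11, 15, 19 and 25 members called at 40 days, at 80 days, for the interaction and for age in wild-type and SOD1G93A mice. The shares of all probes were 4.49%, 7.82%, 6.85%, 15.6% and 16.7%. The block ended 7 of 53 calls of named probes, those of Dnajc17, both Dnajc5 probes, Hspa1a and Tmem208, and the interactions of Dnaja4 and Hspe1. Leaving out 1 array gave 4 to 11 members at 40 days, 8 to 18 at 80 days, 11 to 19 for the interaction, 14 to 22 for age in wild-type and 17 to 31 in SOD1G93A mice. These ranges stand without the share of all probes in the same runs, so they describe the member count only. Over all probes, 953 calls at 40 days became 246 with bright backgrounds kept, 3335 with processed signals, 536 in Cy3 alone, 538 in the series matrix and 1881 with no filter on dim probes, 1481 at 80 days became 2378 with array weights and 2412 with no filter, and 1466 for the interaction became 797, 2656 and 2459 with bright backgrounds kept, processed signals and no filter. For the interaction it was 976 in Cy3 alone, and for age in wild-type mice 3307 became 5004 with no filter. For age in SOD1G93A mice, 246 adjusted calls became 1124 with array weights (7 of them members), 79 with bright backgrounds kept, 69 with median centring, 146 in Cy3 alone, 88 without the 3 arrays with bright backgrounds and 18 without the 4 with high muscle markers, and in wild-type mice 347 became 101, 147, 190 and 109 with bright backgrounds kept, in Cy3 alone and without the same arrays. Dnajc17 at 40 days turned its sign with processed signals (0.0575, in place of -0.12). Apart from the runs that left out each array in turn, 576 of 733 values of called named probes kept their call. That total holds settings that leave a probe's own values nearly as they are. The 2 other filters on dim probes kept 53 of 53 each, and keeping outlier spots kept 52. Settings that change the values kept fewer: 31 of 53 in Cy3 alone, 33 with bright backgrounds kept, 33 with processed signals, 34 with median centring and 15 of 33 in the series matrix. The series matrix was not run for the age comparisons, since its column medians differ between the ages and not within them. A change in a dim gene is understated.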
